A study of Mus musculus with 17 samples.

Results

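H3K9ac, acetylation of lysine 9 on histone H3, was compared by ChIP-seq between Sirt6 knockout (KO) mouse embryonic stem cells treated with retinoic acid (RA) and untreated KO cells. Peaks of the RA list and of the untreated list that overlapped by at least 1 bp were merged into 4715 regions. Merging all 8 acetylation lists of the series gave 6400 regions, of which 4704 held a KO H3K9ac peak. A region was called gained when it had a peak in the RA list only, lost when it had one in the untreated list only, and kept when both lists had one. These names describe the lists and not a tested change, since each group was 1 library and no test between conditions is possible. All intervals are 95% intervals over peaks or regions. They cover counting error only, and regions are not replicates.

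The series held 17 samples of Sirt6 KO and wild-type (WT) cells of the 129 strain. The lists used here were H3K9ac and H3K56ac, each in KO and WT cells with and without RA, and Sirt6 in untreated WT cells. The RA-treated KO cells were given all-trans RA (0.01 M stock, diluted 1 in 10000) over 2 days, in medium from which the cytokine LIF had been withdrawn beforehand, and were harvested 1 day after its removal, still without LIF. The untreated KO cells stayed in medium with LIF, so RA and the withdrawal of LIF cannot be told apart. Both groups were grown on irradiated mouse fibroblast feeders that were depleted by plating, and the share of feeder chromatin left was not analysed here. Whether the KO line is 1 clone is not stated by the labels. The lists of the 2 Sirt6 libraries from KO cells hold no peak.

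H3K9ac marks active promoters and enhancers, where acetylation of the histone tail goes with open chromatin and transcription. Sirt6 is an NAD-dependent deacetylase that removes acetyl groups from H3K9 and H3K56. RA binds nuclear receptors on DNA and drives embryonic stem cells out of pluripotency, and LIF keeps mouse stem cells undifferentiated. Positions are in mouse build mm9. Each region is identified by its position, since gene annotation of that build was not used here and nearby genes were not looked up.

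The RA list held 3147 peaks from 10250030 filtered tags, and the untreated list held 3593 peaks from 7217855 filtered tags. The RA library was thus 1.42 times as deep. The pileup, the number of extended tags over the peak summit, had a median of 25 in the RA list and 18 in the untreated list. Per 1000000 filtered tags these are 2.44 and 2.49, and this scaled pileup (ppm) is used for all levels that follow. The authors' fold enrichment over the local background had a median of 10.6 in the RA list and 8.24 in the untreated list. The lowest pileup in the RA list was 10, or 0.976 ppm, against 8, or 1.11 ppm, in the untreated list. No control library entered the calls of the acetylation lists, so places where reads pile up in any library remain in them.

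More regions were lost than gained. There were 1129 gained regions (23.9% of all regions), 1573 lost regions (33.4%) and 2013 kept regions. The ratio of gained to lost regions was 0.718 (0.664 to 0.775). It turned to 3.34 (2.92 to 3.82) when both lists were limited to peaks with a −log10 q of at least 10, and it was 1.00 (0.922 to 1.09) when the untreated list was shortened to the 3147 strongest peaks. With limits on the depth-scaled pileup, lost regions still outnumbered gained ones. The ratio was 0.736 (0.618 to 0.876) with a pileup of at least 3 ppm in both lists. It was 0.707 (0.654 to 0.764) with a common floor of 1.11 ppm. The direction of the net change in number therefore depends on the kind of limit set on peak strength. Unlike this pileup, −log10 q is not scaled to depth, and the part of depth in the turn was not tested.

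Gained and lost regions were mostly weak peaks. Gained regions had a median pileup of 1.66 ppm and a median fold enrichment of 8.15 in the RA list. Lost regions had a median pileup of 2.08 ppm and a median fold enrichment of 5.92 in the untreated list. Kept regions had 3.41 ppm in the RA list and 3.46 ppm in the untreated list. A pileup of at least 3 ppm was reached by 66 of the 1129 gained regions (5.85%) and 114 of the 1573 lost regions (7.25%). Of the kept regions, 1150 (57.1%) reached it in the RA list and 1184 (58.8%) in the untreated list. The median length was 218 bp for gained and 239 bp for lost regions.

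Strength alone separated kept from other peaks to a large degree. In the RA list, the share of peaks that overlapped the untreated list was 26.03% (21.5% to 31.1%) in decile 1 (the weakest) by −log10 q, 57.5% (51.9% to 62.8%) in decile 5 and 100% of 315 peaks in decile 10. In the untreated list, the share that overlapped the RA list was 2.50% (1.32% to 4.68%) in decile 1, 47.5% (42.4% to 52.7%) in decile 5 and 99.7% (98.4% to 99.95%) in decile 10. The strongest peaks of either list were thus nearly all called in the other list.

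Within deciles of strength, untreated peaks at sites that carried a Sirt6 peak in WT cells were kept less often than other untreated peaks. In decile 3 of the untreated list, 3 of 208 peaks at a Sirt6 site were kept (1.44%; 0.492% to 4.15%), against 68 of 151 elsewhere (45.0%; 37.3% to 53.0%). In decile 5 the shares were 8.94% (5.07% to 15.3%) of 123 peaks at Sirt6 sites and 67.5% (61.3% to 73.2%) of 237 peaks elsewhere. In decile 7 they were 46.7% (30.2% to 63.9%) of 30 peaks and 90.6% (86.9% to 93.3%) of 329 peaks. They met in decile 10, where 125 of 126 peaks at Sirt6 sites and all 234 peaks elsewhere were kept. In the RA list the order was the other way: 81.2% (76.1% to 85.3%) of the 276 peaks at Sirt6 sites were also in the untreated list, against 62.5% (60.7% to 64.2%) of the other 2871 peaks.

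**Figure D1:**
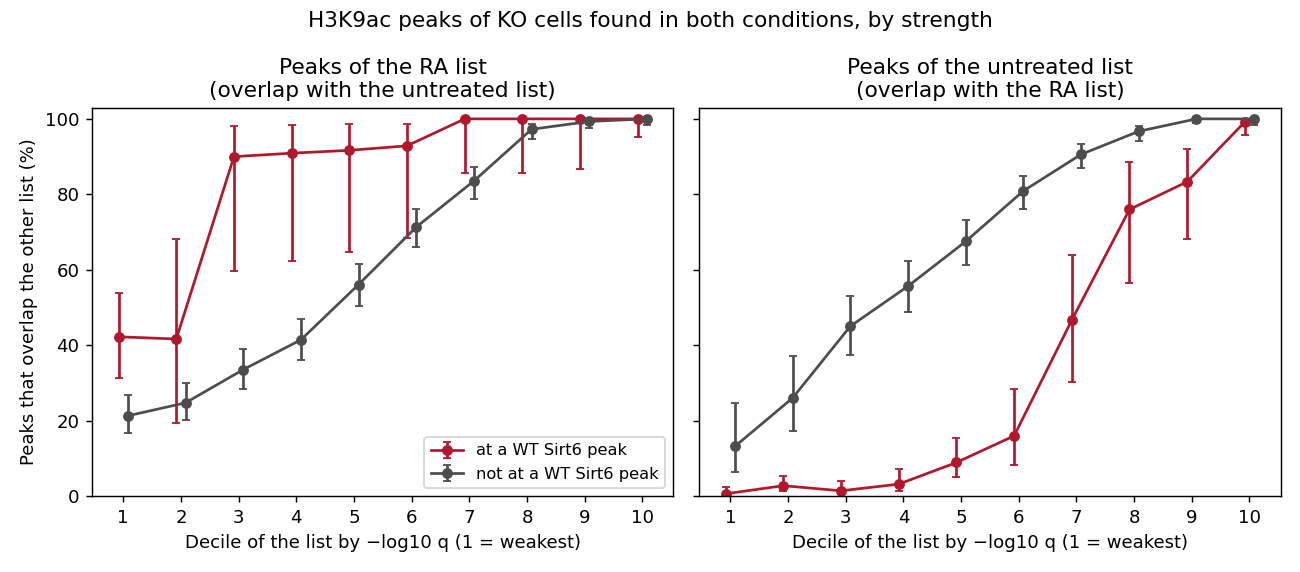
Percent of H3K9ac peaks of KO cells that overlap a peak of the other condition, by decile of each list ranked on −log10 q, for the RA list (left) and the untreated list (right), with Wilson 95% intervals as bars. In the untreated list, peaks at a WT Sirt6 peak lie below the others up to decile 9, for example at 8.94% against 67.5% in decile 5; in the RA list they lie above the others in the weaker deciles.

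The local background differed between these classes and between Sirt6 sites and regions elsewhere. From the pileup and the fold enrichment the background used by the peak caller can be worked out, and it is given here relative to the genome-wide expectation of the same library. Its median was 1.00 for gained regions in the RA list and 2.00 for lost regions in the untreated list. It was 2.30 for lost regions at Sirt6 sites and 1.00 for lost regions elsewhere. More than 1.1 times the expectation was found at 97.1% of the lost regions at Sirt6 sites (95.9% to 97.9%), at 38.4% of the other lost regions (34.0% to 42.9%) and at 25.5% of the gained regions (23.1% to 28.1%). Of the kept regions, 62.0% (59.9% to 64.1%) exceeded that level in the untreated list. At Sirt6 sites, 98.2% (95.5% to 99.3%) of the kept regions did so, with a median of 3.61. In the RA list, 76.9% (63.9% to 86.3%) of the gained regions at Sirt6 sites did so. Raised read density was thus common at Sirt6 sites in each class, and not only at lost regions. The part of that density in the loss of peaks at lost regions was not tested.

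The lists that took no part in defining the classes showed different patterns for gained and lost regions. Gained regions were found in the H3K9ac lists of WT cells in 46.9% (44.0% to 49.9%) after RA and 41.9% (39.0% to 44.8%) untreated. Kept regions were found there in 87.2% (85.7% to 88.6%) after RA and 73.3% (71.3% to 75.2%) untreated. Lost regions were found in 3.24% (2.47% to 4.24%) after RA and 3.94% (3.09% to 5.02%) untreated. These shares depend on the limit set on peak strength. A pileup of at least 3 ppm was asked of the KO H3K9ac lists only. With it, 94.3% of the gained regions were in the WT RA list and 32.8% of the lost regions in the untreated WT list. With a −log10 q of at least 10 in all lists, the WT lists included, these were 58.6% and 10.5%. The latter shares thus also reflect WT peaks that the limit removed.

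In WT cells, gained regions did not sort mainly with RA. Of the 1129 gained regions, 226 had a WT H3K9ac peak after RA only, 304 in both conditions, 169 in untreated cells only and 430 in neither. Of the 1573 lost regions, 32 had one after RA only, 19 in both conditions, 43 in untreated cells only and 1479 in neither. Thus 473 regions that KO cells had in the RA list only were already called in untreated WT cells.

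H3K56ac, the other mark on which Sirt6 acts, took no part in defining the classes. In KO cells its list held more of the gained regions after RA and more of the lost regions in untreated cells. Gained regions had a KO H3K56ac peak in 18.95% (16.8% to 21.3%) after RA and 8.77% (7.26% to 10.6%) untreated. Lost regions had one in 9.03% (7.71% to 10.5%) after RA and 17.2% (15.4% to 19.2%) untreated. In WT cells, 21.2% (18.9% to 23.6%) of the gained regions had an H3K56ac peak after RA and 42.5% (39.7% to 45.4%) in untreated cells, the opposite order to that in KO cells. The H3K56ac libraries differed in depth, from 5782181 filtered tags in untreated KO cells to 7790807 in untreated WT cells, and the part of depth in these shares was not tested.

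Regions without a peak in any of the other 6 acetylation lists made up 26.4% of the gained (23.9% to 29.0%), 2.19% of the kept (1.63% to 2.92%) and 71.8% of the lost regions (69.6% to 74.0%). All 6 other lists held a peak at 10 gained regions, 994 kept regions and 1 lost region.

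**Figure D2:**
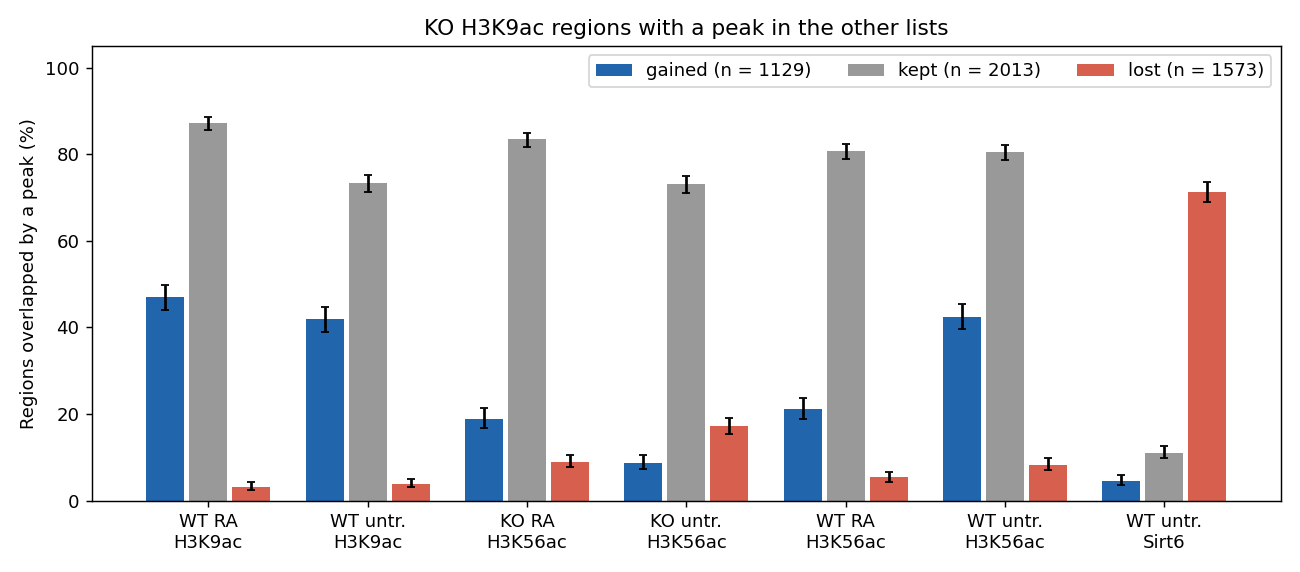
Percent of gained, kept and lost KO H3K9ac regions overlapped by a peak of 7 lists that did not define the classes, with Wilson 95% intervals as bars; untr. stands for untreated. Kept regions lead in the 6 acetylation lists, with 73.0% to 87.2%, whereas lost regions lead in the Sirt6 list, with 71.3%.

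Lost regions were of 2 kinds with respect to Sirt6. Of the 1573 lost regions, 1122 overlapped a Sirt6 peak of untreated WT cells (71.3%) and 451 did not, against 1397 of all 4715 regions (29.6%). The share of lost regions at Sirt6 sites was 34.8% with a −log10 q of at least 10 in all lists, the Sirt6 list included. The median −log10 q of the Sirt6 peaks was 9.63, so that limit also removed Sirt6 sites. With a pileup of at least 3 ppm in the KO H3K9ac lists the share was 43.7%. Under either limit, regions kept in the main lists count as lost if only their untreated peak passes. Among the 1122 at Sirt6 sites, 1 had an H3K9ac peak in untreated WT cells and 4 had one in WT cells after RA, and 905 (80.7%; 78.2% to 82.9%) had no peak in any of the 6 other acetylation lists. Among the 451 elsewhere, 61 (13.5%; 10.7% to 17.0%) had an H3K9ac peak in untreated WT cells, 112 (24.8%; 21.1% to 29.0%) had an H3K56ac peak in untreated KO cells, and 225 (49.9%; 45.3% to 54.5%) had none in the 6 lists. The H3K9ac summit lay a median of 76 bp from the Sirt6 summit at the lost regions with one, against 13 bp at the kept regions. The overlapping Sirt6 peaks were 588.5 bp long at lost regions and 297 bp long at kept regions, both medians. At gained regions with a Sirt6 peak the medians were 71.5 bp for the distance and 543 bp for the length. The Sirt6 peaks were thus broader at both lost and gained regions than at kept regions.

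Only 52 gained regions lay at a Sirt6 site (4.61%; 3.53% to 5.99%), against 29.6% of all regions. Of these 52, 40 (76.9%; 63.9% to 86.3%) had no peak in the 6 other acetylation lists, against 26.4% of all gained regions. The 52 had a median pileup of 1.37 ppm and a median fold enrichment of 5.53, against 1.66 ppm and 8.48 for the 1077 gained regions elsewhere.

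Kept regions had nearly the same place, length and level in both conditions. The summits lay a median of 16 bp apart, and 1722 of the 2013 kept regions (85.5%) had them within 50 bp. The median length was 277 bp in the RA list and 275 bp in the untreated list. The median log2 ratio of pileup in ppm, RA over untreated, was -0.08 (-0.10 to -0.06). It lay within 1.5-fold at 80.3% of the kept regions, was more than 1.5-fold higher after RA at 119 (5.91%) and more than 1.5-fold lower at 277 (13.8%).

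The authors' fold enrichment gave another sign. Its median was 13.7 in the RA list and 11.9 in the untreated list, a median log2 ratio of 0.13 (0.12 to 0.15). At 496 kept regions (24.6%) the pileup in ppm was lower after RA while the fold enrichment was higher. Fold enrichment adds 1 to the pileup and to the background before dividing, so it depends on depth. With no control library, the background it divides by also holds the peak's own reads. The small net shifts of the kept regions therefore have no sign that holds on both scales.

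Kept regions at Sirt6 sites stood lower after RA on both scales. The 223 kept regions at a WT Sirt6 peak had a median pileup of 6.54 ppm in the RA list and 10.4 ppm in the untreated list. Their median log2 ratio was -0.79 (-0.97 to -0.58), and 207 of the 223 were below 0. With a pileup of at least 3 ppm in both lists it was -0.48 (-0.57 to -0.43) over 156 regions. More than 1.5-fold lower after RA were 125 of them (56.1%; 49.5% to 62.4%), against 13.8% of all kept regions. More than 1.5-fold higher were 0 of 223, which allows a share of up to 1.35%. Their median log2 ratio of fold enrichment was -0.17 (-0.21 to -0.11), and that of length was -0.11 (-0.14 to -0.09).

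The other 1790 kept regions had a median pileup of 3.22 ppm in the RA list and 3.19 ppm in the untreated list. Their median log2 ratio was -0.03 (-0.05 to -0.01), with 119 regions (6.65%) more than 1.5-fold higher after RA and 152 (8.49%) more than 1.5-fold lower. Their median log2 ratio of fold enrichment was 0.16 (0.15 to 0.18).

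**Figure D3:**
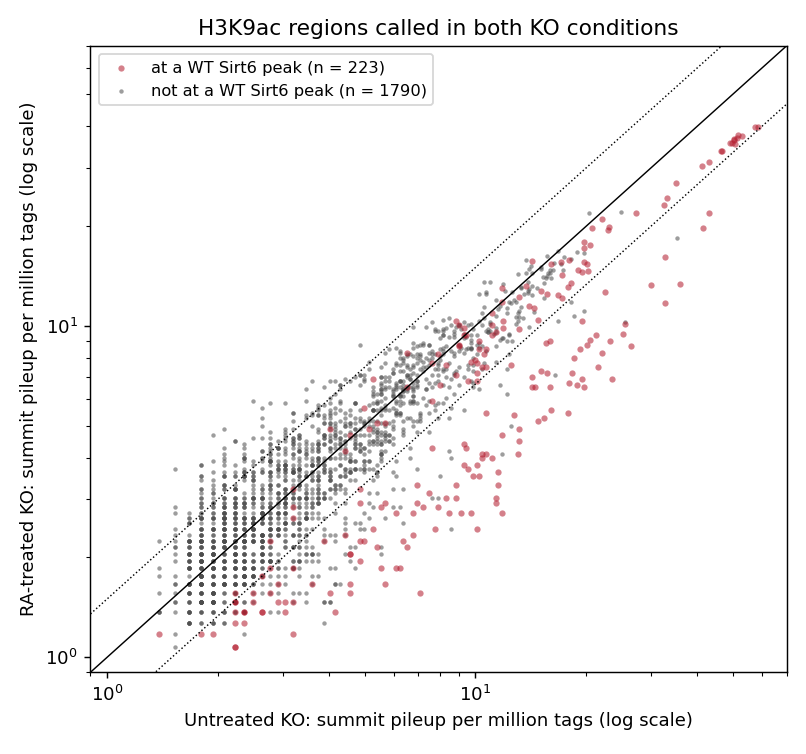
Summit pileup (ppm) of the 2013 kept regions in RA-treated KO cells (vertical, log scale) and untreated KO cells (horizontal, log scale); each point is a region, the solid line marks equal values and the dotted lines a 1.5-fold difference. Regions at a WT Sirt6 peak (223) lie mostly below the solid line, with 125 under the lower dotted line and 0 over the upper one.

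The gap between kept regions at Sirt6 sites and elsewhere was present at each level of untreated signal. In quintile 1 (the lowest) of kept regions by untreated pileup, the median log2 ratio was -0.62 for 7 regions at Sirt6 sites and 0.12 for 396 regions elsewhere. In quintile 3 it was -1.06 for 13 regions and -0.06 for 390 regions. In quintile 4 it was -1.15 for 33 regions and -0.06 for 369 regions. In quintile 5 it was -0.53 (-1.02 to -0.47) for 154 regions at Sirt6 sites and -0.14 (-0.18 to -0.11) for 249 regions elsewhere. Kept regions at Sirt6 sites were thus unevenly spread, with most of them in quintile 5. The quintiles were formed on the untreated pileup, which is also the divisor of the ratio, so a high quintile favours a low ratio in both sets. In quintile 5, no region of either set was more than 1.5-fold higher after RA. The absence of such regions there is therefore not particular to Sirt6 sites. More than 1.5-fold lower in quintile 5 were 48.1% of the regions at Sirt6 sites and 10.0% of those elsewhere.

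The local background at Sirt6 sites was also lower after RA. At kept regions with a Sirt6 site it was a median of 2.23 times the genome-wide expectation in the RA library and 3.61 times in the untreated library. At the other kept regions it was 1.30 times in the RA library and 1.20 times in the untreated library. No control library was used, so this background holds reads of the peaks themselves and is not independent of their pileup. The part of the background in the lower pileup was not tested.

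Regions called in all 8 acetylation lists had ratios nearer to 0. At Sirt6 sites, the median log2 ratio was -0.47 (-0.57 to -0.39) for the 134 kept regions called in all 8 lists and -1.05 (-1.16 to -0.83) for the other 89. Elsewhere it was 0.01 (-0.02 to 0.04) for 860 regions called in all 8 lists and -0.07 (-0.11 to -0.04) for the other 930.

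The same measure was taken in the other pairs of libraries, each over its own kept regions. H3K56ac in KO cells had the same direction at Sirt6 sites, with a median pileup of 8.85 ppm after RA and 11.5 ppm untreated and a median log2 ratio of -0.43 (-0.52 to -0.27) over 222 regions, against 0.04 (0.01 to 0.06) over 1351 regions elsewhere. H3K9ac in WT cells had a median log2 ratio of 0.27 (0.18 to 0.36) over 145 regions at Sirt6 sites and -0.01 (-0.05 to 0.03) over 1671 regions elsewhere. H3K56ac in WT cells had 0.32 (0.22 to 0.40) over 185 regions and 0.13 (0.08 to 0.17) over 1396 regions. Kept regions at Sirt6 sites thus had lower pileup after RA in both KO pairs and higher pileup after RA in both WT pairs. Fold enrichment there had a median log2 ratio of -0.09 (-0.16 to -0.07) for KO H3K56ac and -0.10 (-0.16 to -0.05) for WT H3K56ac. For WT H3K9ac it was 0.02 (-0.04 to 0.05). On that scale the KO and WT pairs of H3K56ac thus had the same sign at Sirt6 sites. Regions elsewhere had 0.09 for KO H3K56ac, -0.13 for WT H3K9ac and -0.19 for WT H3K56ac.

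The estimated fragment length bears on the WT values. It was 204 bp in the RA library and 212 bp in the untreated library of KO H3K9ac, but 198 bp and 155 bp in the RA and untreated libraries of WT H3K9ac, and longer fragments raise a pileup. Divided by fragment length, a scaling chosen after the data were seen, the median at Sirt6 sites was -0.73 (-0.91 to -0.52) for KO H3K9ac, -0.45 (-0.53 to -0.28) for KO H3K56ac, -0.08 (-0.17 to 0.01) for WT H3K9ac and 0.08 (-0.02 to 0.16) for WT H3K56ac. The higher pileup of the WT pairs at Sirt6 sites is therefore not seen under that scaling, whereas the lower pileup of the KO pairs is. At regions elsewhere the scaled medians were 0.03 for KO H3K9ac, 0.02 for KO H3K56ac, -0.37 for WT H3K9ac and -0.11 for WT H3K56ac. The scaling shifts both sets of a pair alike. Sirt6 sites thus still stood below regions elsewhere in the KO pairs and above them in the WT pairs.

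**Figure D4:**
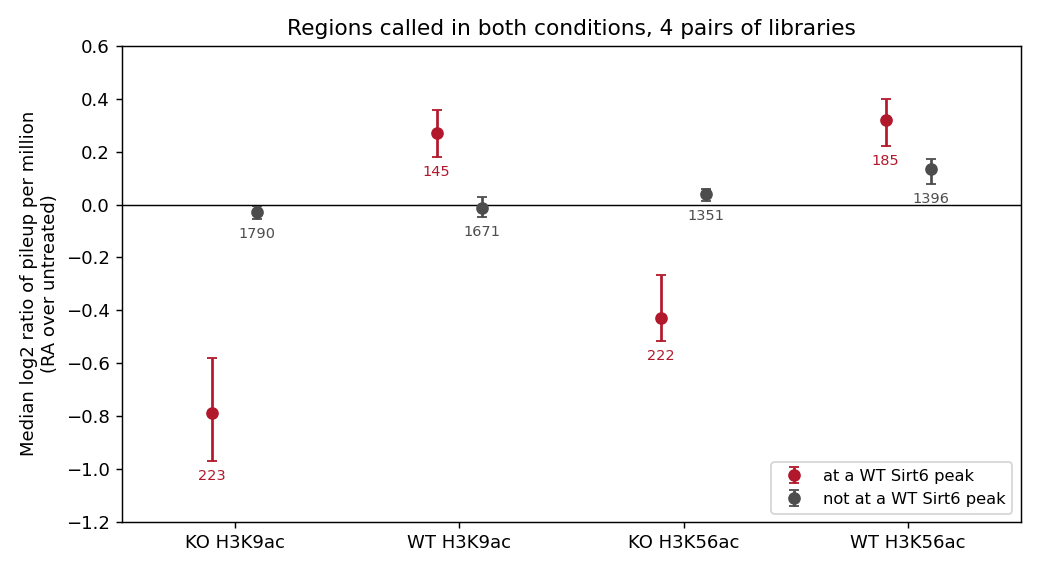
Median log2 ratio of pileup in ppm, RA over untreated, over the kept regions of each of 4 pairs of libraries, with order-statistic 95% intervals as bars and the number of regions beside each point. At WT Sirt6 peaks the medians are -0.79 and -0.43 in the KO pairs and 0.27 and 0.32 in the WT pairs; fragment length is not taken into account here.

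The classes differed between chromosomes. Chromosome X held 100 gained, 201 kept and 49 lost regions, a ratio of gained to lost of 2.04 (1.44 to 2.93). The autosomes together held 970 gained, 1684 kept and 1505 lost regions, a ratio of 0.645 (0.594 to 0.699). Of the regions in the untreated list, 19.6% (15.2% to 24.97%) were lost on chromosome X and 47.2% (45.5% to 48.9%) on the autosomes. Sirt6 sites held 28 of the 250 untreated regions on chromosome X, whereas on the autosomes 1279 untreated regions lay at one and 1910 did not. Away from Sirt6 sites, 16.7% (12.3% to 22.1%) of 222 untreated regions were lost on chromosome X and 20.8% (19.1% to 22.7%) of 1910 on the autosomes, and these intervals overlap. At Sirt6 sites, 42.9% (26.5% to 60.9%) of 28 were lost on chromosome X and 86.6% (84.6% to 88.3%) of 1279 on the autosomes. The number of X chromosomes in these cells was not analysed here.

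Contigs without a position on a chromosome held 54 gained, 114 kept and 18 lost regions, a ratio of 3.0 (1.73 to 5.44), and chromosome Y held 5 gained, 14 kept and 0 lost regions. Chromosome 11 held 42 gained, 43 kept and 109 lost regions, a ratio of 0.385 (0.263 to 0.555). A Sirt6 peak overlapped 93 of its 109 lost regions (85.3%) and 101 of its 152 regions in the untreated list.

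**Figure D5:**
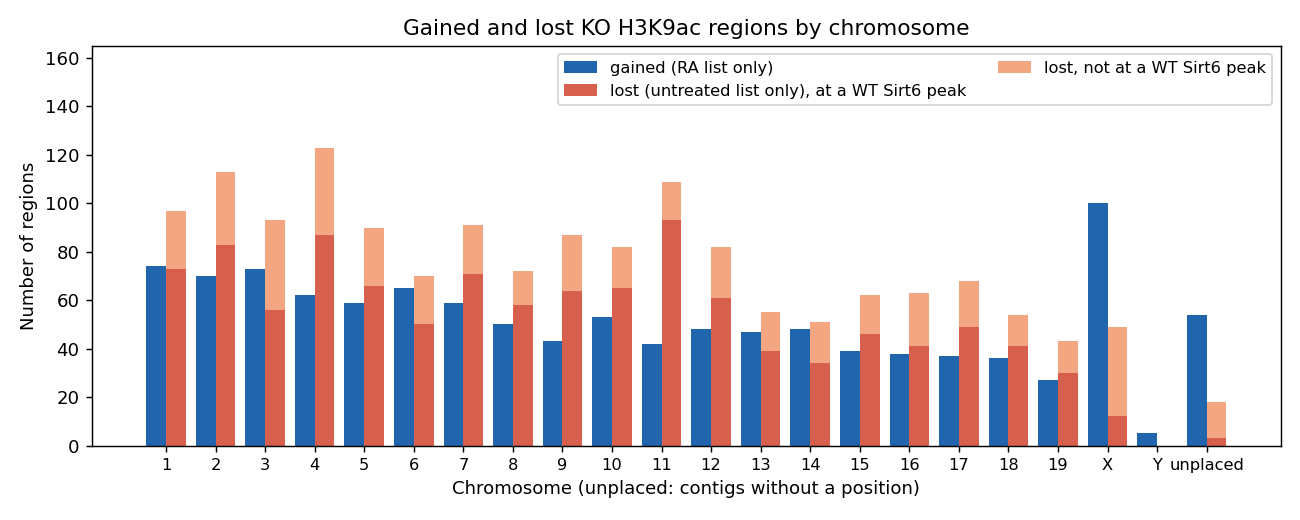
Number of gained regions and of lost regions, with lost regions split by overlap with a WT Sirt6 peak, per chromosome of KO cells; the single mitochondrial region is left out. Chromosome X had 100 gained and 49 lost regions, and chromosome 11 had 42 gained and 109 lost regions.

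The gained region of highest fold enrichment was found on chromosome X from 42662191 to 42662421. Its pileup was 5.17 ppm and its fold enrichment 22.8 in the RA list. WT cells had peaks there in both conditions, with 6.45 ppm after RA and 2.98 ppm untreated. The next gained region, at 47385877 to 47386129 on the same chromosome, had a fold enrichment of 19.2 and was called in all 6 other acetylation lists. The third, on chromosome 10 from 3702986 to 3703232, had a fold enrichment of 16.2, and of the WT H3K9ac lists only the RA list had a peak there, with 4.93 ppm. Of the 8 gained regions with the highest fold enrichment, 8 were called in the WT RA H3K9ac list, 7 in the untreated WT H3K9ac list and 0 at a Sirt6 peak. Over all gained regions these shares were 46.9%, 41.9% and 4.61%, so the count at Sirt6 peaks is near its share.

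The lost region with the highest fold enrichment, 25.2, spanned bases 21961844 to 21962165 of chromosome X, with a pileup of 9.98 ppm in the untreated list. The H3K56ac pileup there was 3.22 ppm in KO cells after RA and 10.4 ppm in untreated KO cells. On chromosome 7, the lost region from 83977797 to 83978187 had 6.37 ppm and a fold enrichment of 19.4, and its H3K56ac pileup in KO cells was 3.36 ppm after RA and 7.26 ppm untreated. On chromosome 15, the lost region from 62601962 to 62602211 had 5.26 ppm, with an H3K56ac pileup in KO cells of 8.77 ppm after RA and 13.8 ppm untreated. All 8 of the highest lost regions overlapped a Sirt6 peak and a peak of untreated KO H3K56ac, 6 also had a KO H3K56ac peak after RA, and 1 had a peak in the untreated WT H3K9ac list. Over all lost regions, 71.3% overlapped a Sirt6 peak and 3.94% had a peak in the untreated WT H3K9ac list. A KO H3K56ac peak was found at 17.2% of them untreated and 9.03% after RA. Of all 1573 lost regions, 84 had a KO H3K56ac peak in both conditions, 187 in untreated cells only, 58 after RA only and 1244 in neither.

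Over all kept regions, 49.4% were called in all 8 acetylation lists and 11.1% overlapped a Sirt6 peak. Of the 5 kept regions with the highest fold enrichment, all were called in all 8 acetylation lists and 4 overlapped a Sirt6 peak. The first, on chromosome 13 between 86453014 and 86453370, had 26.9 ppm after RA and 35.1 ppm untreated, while its fold enrichment was 38.7 after RA and 38.5 untreated. The third, on chromosome X between 60379562 and 60379972, had 21.9 ppm after RA and 43.2 ppm untreated, and the fold enrichment was 37.0 after RA and 36.8 untreated. At these sites the local background was lower after RA as well. On chromosome X it was 4.54 times the genome-wide expectation after RA and 9.17 times untreated. That background comes from reads of the same library, the peak's own included, so it is not separate from the pileup.

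The kept region with the largest log2 ratio, 1.28, lay on chromosome 11 from 25460629 to 25460946, with 3.71 ppm after RA and 1.52 ppm untreated. WT H3K9ac there was 3.64 ppm after RA and 5.44 ppm untreated. The 5 kept regions with the largest ratios held no Sirt6 peak, and all 5 were called in the WT RA H3K9ac list. Of all kept regions, 11.1% overlapped a Sirt6 peak and 87.2% were in that WT list, so these counts are near those shares. The kept region with the smallest log2 ratio, -2.18, lay on chromosome 9 from 55676687 to 55676975, with 1.56 ppm after RA and 7.07 ppm untreated. H3K56ac in KO cells was 3.66 ppm there after RA and 7.09 ppm untreated, and neither WT H3K9ac list had a peak. The second smallest, -2.11, lay on chromosome 14 from 29433996 to 29434337, with 2.73 ppm after RA and 11.8 ppm untreated, and WT cells had 3.99 ppm after RA and 3.37 ppm untreated. All 5 of the kept regions with the smallest ratios overlapped a Sirt6 peak and had KO H3K56ac peaks in both conditions. Of all kept regions, 69.0% had KO H3K56ac peaks in both conditions.

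Most regions had no other region of their own class nearby. Another gained region lay within 10000 bp of 3.63% of the gained regions (2.69% to 4.89%), another kept region near 9.14% of the kept regions (7.96% to 10.5%), and another lost region near 4.51% of the lost regions (3.59% to 5.66%). A kept region lay within that distance of 6.64% of the gained regions (5.33% to 8.25%) and 2.48% of the lost regions (1.82% to 3.37%). The share under an even spread of sites was not worked out, so these values do not show whether the regions cluster.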

How the data were processed

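The labels' protocols describe chromatin immunoprecipitation with an antibody to H3K9ac. The submitters' processing notes name BWA 0.5.9 for alignment, MACS2 2.0.10 for peak calling, Picard (with no step given) and mouse build mm9. Each library was called alone with a q cutoff of 0.01, 1 tag kept per position and no control library for acetylation, per the file headers. The deposited lists give for each peak a pileup signal at the summit, a −log10 p-value and −log10 q-value, and a fold enrichment against local background, which the authors took from MACS2. The pileup cannot exceed 2 tags per base of fragment, and 2 RA peaks and 1 untreated peak sit at that limit.

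From these lists, pileup was scaled to 1000000 filtered tags (ppm), and the highest value in each region was used. The local background was taken from fold enrichment as (pileup + 1)/(background + 1); the lowest value so found was 1.00 times the genome-wide expectation in all 8 acetylation lists. Shares carry Wilson intervals, ratios of counts exact Clopper-Pearson intervals and medians order-statistic intervals. Beside a share of 0 stands the share that 3 counts would make. Sirt6 sites are Sirt6 peaks of untreated WT cells overlapping by 1 bp. Named regions are the 8 gained, 8 lost and 5 kept regions with the highest fold enrichment and the 5 kept regions with the largest and the 5 with the smallest log2 ratio, on chromosomes 1 to 19, X and Y; the text names some. The gene lists of the plan were not used, since they need gene positions in mm9. The merging and intervals were tested on simulated data. The regions, lists and alternatives were chosen with earlier results of these data known. There were 0 unused columns of per-sample values. Software was pandas 2.3.3, numpy 2.4.6 and scipy 1.17.1 under Python 3.11.15, with matplotlib 3.10.9.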

Additional observations from a re-analysis of the deposited data

Results flagged for a closer look

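At Sirt6 sites the 2 genotypes had medians of opposite sign over the same regions. Among the 138 Sirt6-site regions called in all 4 H3K9ac lists, the median log2 ratio of pileup in ppm, RA over untreated, was -0.48 (-0.57 to -0.43) in KO cells and 0.30 (0.20 to 0.42) in WT cells. The median pileup was 8.93 ppm after RA and 15.0 ppm untreated in KO cells, against 9.38 ppm after RA and 6.80 ppm untreated in WT cells. The KO ratio lay below the WT ratio at 128 of the 138 regions (92.8%), with a median difference of -0.92 (-1.22 to -0.69). The difference between genotypes was not tested, since each group was 1 library. Divided by fragment length, a scaling chosen after the data were seen, the medians were -0.42 in KO cells and -0.05 (-0.15 to 0.07) in WT cells, and the difference was -0.51 (-0.81 to -0.28). The authors' fold enrichment gave a difference of -0.10 (-0.25 to -0.06). At the 1249 regions elsewhere the difference was -0.09 (-0.14 to -0.04), 0.32 (0.27 to 0.36) with fragment length and 0.26 (0.23 to 0.30) in fold enrichment, so its sign depends on the scale.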

How the results depend on the processing

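No paired analysis was possible because each group was 1 library and the labels give no replicate numbers. The −log10 q limit was applied to all lists, the WT and Sirt6 lists included, and the pileup limit to the KO H3K9ac lists only. Under either limit, a region kept in the main lists counts as gained or lost when only 1 of its peaks passes. With a −log10 q of at least 10, gained regions exceeded lost ones at a ratio of 3.34 (958 gained, 1629 kept, 287 lost); the WT RA H3K9ac list held 58.6% of the gained, and the untreated WT H3K9ac list 10.5%, the untreated KO H3K56ac list 29.6% and the Sirt6 list 34.8% of the lost regions, with 0.104% of the gained at Sirt6, and the kept log2 length ratio was -0.021. With lists of equal length the ratio was 1.00 and those 3 shares of the lost regions 5.18%, 20.7% and 65.9%. On autosomes the ratio was 0.645 and 73.6% of lost regions lay at Sirt6. With a pileup of at least 3 ppm, an alternative added after seeing the data (229 gained, 987 kept, 311 lost), the WT RA H3K9ac list held 94.3% and the KO RA H3K56ac list 67.7% of the gained, and the untreated WT H3K9ac list 32.8%, the untreated KO H3K56ac list 67.2% and the Sirt6 list 43.7% of the lost; 2.62% of the gained lay at Sirt6, the kept log2 length ratio was -0.024 and the kept log2 pileup ratio at Sirt6 -0.48. Without regions in all 8 lists the kept log2 ratios were -0.12 for pileup, -0.0057 for length, -1.05 at Sirt6 and -0.070 elsewhere. Divided by fragment length, the kept log2 pileup ratio was -0.020, and 0.026 away from Sirt6 sites. The other 80 values moved by less than their intervals, and the causes were not tested. Among them, the gained and lost values without regions in all 8 lists could not move, since that setting drops kept regions only. Depth limits calls to pileups of 0.976 ppm after RA and 1.11 ppm untreated.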

Other observations

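The highest pileups among gained and lost regions lay in stretches of dense reads. The lost region with the highest pileup, 53.6 ppm, lay on chromosome 9 from 3025605 to 3025870, where the fold enrichment was 1.37 and the local background 344 times the genome-wide expectation. On chromosome 17, a short stretch held both gained and lost regions with high background. The gained regions from 39980082 and from 39984838 had 8.39 and 7.80 ppm, and the lost regions from 39982829 and from 39985432 had 11.4 and 12.6 ppm. Their local background was 30.1 and 30.6 times the expectation at the gained and 40.05 and 36.5 times at the lost regions. These regions were chosen after their values were seen.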
